A study of Mus musculus with 11 samples.

Results

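Classical monocytes were examined in single-cell RNA profiles of whole mouse lung. They were the barcodes with 1000 to 30000 UMIs (unique molecular identifiers, 1 per captured RNA molecule) and at most 14% mitochondrial UMIs that held at least 3 UMIs of F13a1 and Vcan together and at least 1 of Ccr2. They also held at most 5 UMIs of C1qa, C1qb and C1qc together, at most 1 of Treml4, Cd300e and Adgre4 together, and 0 of Cd3e and of Cd79a. In all, 1576 of the 69267 barcodes that passed the UMI and mitochondrial limits met the rule, 2.28% of them. The 11 libraries came from 4 genotypes, given at the p21 locus (gene Cdkn1a). They were 1 library of WT mice (+/+), 3 of p21Het mice (heterozygotes, +/-), 5 of p21mTert mice (+/mTert) and 2 of p21mTertCD mice (+/mTertCD). Thus every group but WT kept 1 unaltered p21 allele, and no agent was given per the labels. Tert encodes the catalytic subunit of telomerase, and the labels do not spell out how mTertCD differs from mTert. All lungs were labelled 18 months old, except those of p21Het_1 at 19 and p21mTert_1 at 20 months, whose titles nevertheless read 18. The study concerns capillary rarefaction and emphysema, per its title, and the comparisons below ask how classical monocytes of the same lungs differ between the genotypes. Whole lung was digested with dispase and collagenase and red cells were lysed, so that monocytes within vessels and those within the tissue cannot be told apart. The labels do not say whether libraries came from separate animals, so p-values measure the spread between these libraries only.

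Classical monocytes, marked in mice by the surface protein Ly6C, leave the bone marrow through the chemokine receptor CCR2, circulate briefly and enter tissues, where they can become macrophages or cells resembling dendritic cells. Others convert into non-classical monocytes, which patrol the vessel wall. Like most cells they answer type I interferon through receptor-bound kinases that activate STAT proteins, which with IRF9 bind the interferon-stimulated response element in the promoters of antiviral genes. IRF7, itself induced in this way, amplifies further interferon production.

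Libraries held 42038434 to 85988955 UMIs, and the members alone held 334257 (p21mTert_3) to 4946274 (p21Het_3). The median member had 12265 UMIs, and the medians by library were 10033 to 16157.5 against 4133 to 6454 for all passing barcodes. Members' expression profiles correlated between libraries with Pearson's r of 0.875 to 0.975 across genes. No cell barcode was shared among the members of different libraries, and each of the 55 pairs of libraries shared 4 to 20 passing barcodes (median 11). WT_1, p21Het_1 and p21mTert_1 belong to a first deposit and the other 8 libraries to a later one. The library p21mTertCD_1 stood apart in its lymphocytes, with 160 B cells against 920 to 2277 in the other libraries and 2074 T cells against 566 to 1295. For comparisons with p21mTertCD in classical monocytes, counts of called genes, and differences that move by over 1.5 times, are also given without it.

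The members carried markers of classical monocytes that the rule did not use, although every such value is a description, since cells chosen on some genes differ in others. Ms4a6c, a membrane-spanning protein of myeloid cells, was detected in 99.6% of members and averaged 1263 ± 146 CPM (counts per 1000000 UMIs of the members; SD, n = 11 libraries), 12.0-fold over all other passing barcodes. Here and below, a fold between cell classes is taken after adding 1 CPM to both mean levels, so it is not the plain ratio of printed levels and understates genes near 0. Ly6c2, which encodes the Ly6C antigen, was detected in 93.3% of members at 1033 ± 248 CPM. After every barcode was thinned to 1000 UMIs, the median library had a Ly6c2 UMI in 49.0% of members, against 2.3% of non-classical monocytes and 1.1% of B cells, a type that should lack it. The genes of the rule were at 894 ± 209 CPM for F13a1, the coagulation factor XIII A subunit, 294 ± 190 CPM for Vcan, the proteoglycan versican, and 1035 ± 244 CPM for Ccr2. Other genes of this cell type were high too, among them Plac8 (2747 ± 791 CPM), the fibronectin gene Fn1 (1992 ± 338 CPM) and the haptoglobin gene Hp (926 ± 208 CPM). Chil3, in contrast, was 0.556-fold the level of all other passing barcodes. Its product, a chitinase-like protein, is also a major transcript of alveolar macrophages.

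Against the remaining passing barcodes, the genes of highest ratio outside the rule included Prtn3 (18.8-fold, proteinase 3), Fn1 (14.96-fold), Ifitm6 (12.96-fold), the DNA sensor relatives Ifi211 (11.6-fold) and Ifi204 (10.0-fold), the chemokine gene Ccl9 (10.1-fold), Mefv (9.90-fold, pyrin) and Fcgr1 (8.64-fold, the high-affinity IgG receptor). Each ratio was above 1 in 11 of 11 libraries. Non-classical monocytes were taken as barcodes with at least 2 UMIs of Treml4, Cd300e and Adgre4 together, at least 1 of Csf1r and at most 2 of F13a1 and Vcan. Compared with them, members had 21.5-fold more Fn1, 16.2-fold more Ly6c2 (1033 against 62.8 CPM), 11.8-fold more of the chemokine gene Ccl2 and 10.6-fold more Thbs1. Members had 68.9-fold less Eno3 (2.02 against 207 CPM), 25.7-fold less Ace (25.5 against 679.5 CPM), which encodes angiotensin-converting enzyme, 24.7-fold less of the scavenger receptor gene Cd36 and 22.8-fold less S1pr5. C1q macrophages had at least 20 UMIs of C1qa, C1qb and C1qc together and at most 1 of Marco, Ear1 and Fabp1. Ly6c2 was 65.2-fold over them, while the chemokine gene Ccl8 was near 0 in members, at 0.341 CPM against 966 in those macrophages. Neutrophils had at least 50 UMIs of S100a8 and S100a9 together, at least 1 of Csf3r and at most 2 of F13a1 and Vcan. They exceeded members 154-fold in Retnlg (5816 against 36.8 CPM) and 121-fold in Cxcr2, and had 74.7-fold less Fn1. These classes held 0 UMIs of Cd3e and Cd79a. B cells had at least 3 UMIs of Cd79a and 0 of Cd3e, and T cells at least 2 of Cd3e and 0 of Cd79a. Since all classes were chosen on genes, the folds are descriptions.

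Markers of other lung cells were present and differed between libraries. Summed over their list, epithelial markers came to 679.5 to 4732 CPM of the members' UMIs, with Sftpc, the surfactant gene of alveolar type 2 cells, at 202 to 2911 CPM and detected in 93.4% of members. Scgb1a1, the secretoglobin gene of club cells, was detected in 99.2%. Neutrophil markers came to 191 to 2358 CPM, erythroid markers to 29.7 to 2155, fibroblast markers to 11.7 to 1273, endothelial markers to 18.2 to 277, non-classical monocyte markers to 1344 to 2185, and interstitial macrophage markers to 247 to 664. The non-classical sum had a median of 1798 CPM and included Nr4a1, with a mean of 913 CPM, while 3 of its 10 markers averaged under 10 CPM. It does not separate the members' own RNA from that of other cells. Markers of type 2 dendritic cells came to 71.8 to 360.2 CPM, of type 1 dendritic cells to 71.0 to 138, of alveolar macrophages to 11.6 to 207, and of B cells to 148 to 469 with Cd79a at 0 by the rule. T cell markers were at 2.58 to 17.6 CPM with Cd3e at 0 by the rule, NK markers at 1.29 to 59.7, and mast cell and basophil markers at 0 to 10.3 with Ms4a2 at 0. Classical monocyte markers summed to 9561 to 16566 CPM in the same libraries. The thresholds of the rule were not sharp: 89 members had exactly 3 UMIs of F13a1 and Vcan, the minimum, and 85 barcodes that met every other condition had 2, while the median member had 13.

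Tert was nearly absent from members in every genotype. In order of replicate, its UMIs numbered 0, 1 and 0 in p21Het, 2, 6, 0, 4 and 3 in p21mTert, 13 and 3 in p21mTertCD, and 0 in WT. The WT count allows a level of up to 1.95 CPM on a floor of 3 UMIs. This gave 2.50 ± 1.77 CPM in p21mTert (SD, n = 5), 2.62 ± 1.61 in p21mTertCD (n = 2) and 0.430 ± 0.746 in p21Het (n = 3), and in all 30 of 1576 members had a Tert UMI. The summed counts of p21mTert and p21Het, 15 and 1, gave a ratio of 21.7 (95% exact interval 3.34 to 915), which covers counting error only. Over libraries the difference was 1.18 on the log2(CPM + 1) scale (2-sided exact permutation p = 0.179, adjusted over 6 tests of Tert and Cdkn1a 0.3). For p21mTertCD against p21Het the difference was 1.38 with no overlap of libraries, and p = 0.2 in a design of 2 against 3 whose smallest possible exact p is 0.1. Without p21mTertCD_1 it was 0.92, and p21mTert minus p21mTertCD went from -0.20 to 0.27. No difference in Tert between genotypes thus passed the test.

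Cdkn1a, which encodes the cell cycle inhibitor p21, was at 255, 187 and 267 CPM in p21Het, at 264, 262, 251, 279 and 237 CPM in p21mTert, and at 293 and 291 CPM in p21mTertCD. WT stood above all of these at 422 CPM (95% exact interval 390 to 456). Both p21mTertCD libraries lay above every p21mTert and p21Het library. The difference was 0.32 log2 against p21Het (exact permutation p = 0.2) and -0.18 for p21mTert minus p21mTertCD (exact permutation p = 0.0952, adjusted 0.3). Neither test could pass at these library numbers, so they do not decide whether Cdkn1a differs. The smallest possible exact permutation p is 0.1 for the first and 0.0476 for the second, before adjustment over 6 tests. Without p21Het_2 the 0.32 against p21Het became 0.16. The p21mTert and p21Het libraries overlapped (0.14, exact permutation p = 0.357). Genes of the p53 and senescence list had log2 changes of -0.72 to 1.40 for p21mTertCD minus p21Het and -0.40 to 1.30 for p21mTert minus p21Het. Of 22 tested, edgeR's quasi-likelihood test called 0 in any of the 3 comparisons, with 2, 1 and 1 below an unadjusted p of 0.05 and 0 called by DESeq2. Of 13 genes of telomerase and the shelterin complex, which caps chromosome ends, 0 were called by either tool and 0 passed unadjusted. Over all 8641 genes edgeR called 0.0347%, 0.0579% and 0.718%, starting with p21mTert against p21Het and ending with p21mTertCD against p21Het. By the same sequence, which is also that of the counts above, 6.57%, 6.7% and 5.02% passed unadjusted. At these shares lists of 22 and 13 genes hold few or no such genes, so the counts do not decide whether either list differs.

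The frequency of classical monocytes varied widely within genotypes. They made up 3.01%, 0.657% and 5.29% of passing barcodes in the p21Het libraries, 2.40%, 1.66%, 0.507%, 1.58% and 0.974% in p21mTert, and 4.28% and 2.68% in p21mTertCD. The WT library had 2.58% (exact 95% interval 2.18 to 3.04). Both p21mTertCD libraries were above all 5 p21mTert libraries, and the p21Het libraries overlapped both groups. The p21mTert mean of 1.42% ± 0.719 was 2.06 percentage points below that of p21mTertCD (3.48% ± 1.14), with an exact permutation p of 0.0476, the smallest that 5 against 2 libraries can give, and 0.429 after adjustment over 9 share tests. Without p21mTertCD_1 the difference was -1.26. Against p21Het (2.98% ± 2.31) it was 1.56 points lower in mean (difference -1.56, exact permutation p = 0.196), and p21mTertCD differed from p21Het by 0.499 (exact permutation p = 0.9), or by -0.304 without p21mTertCD_1. These are shares of captured cells: the number of monocytes per lung was not measured, and a change in any other cell type moves them.

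Monocyte balance showed a like order. Classical members were 51.2%, 10.8% and 56.7% of all monocytes (classical plus non-classical) in p21Het, 42.7%, 26.8%, 13.1%, 29.5% and 19.5% in p21mTert, 62.2% and 41.7% in p21mTertCD, and 37.1% (exact 95% interval 32.2 to 42.2) in WT. The library p21Het_2 was lowest of all, with 56 classical to 461 non-classical monocytes. Of the p21mTert libraries only p21mTert_1, the one from the first deposit and of greater labelled age, reached the p21mTertCD range, and the difference of -25.6 points did not pass (exact permutation p = 0.0952, adjusted 0.429) and was -15.4 without p21mTertCD_1. The p21mTert minus p21Het difference was -13.3 points (exact permutation p = 0.357) and that of p21mTertCD minus p21Het 12.3 (exact permutation p = 0.8), or 2.09 without p21mTertCD_1.

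**Figure D1:**
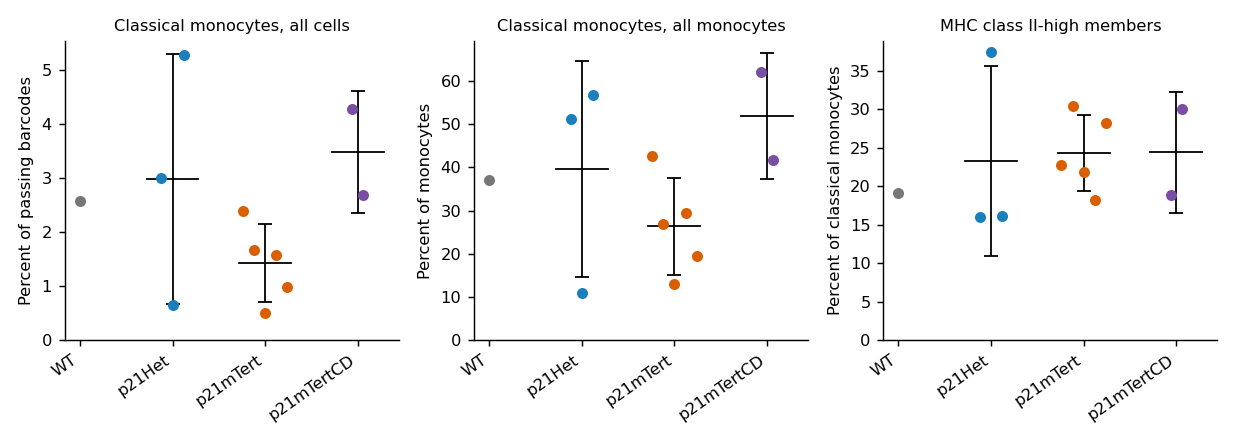
Classical monocytes by genotype, with 1 point per library, a line at the group mean and bars of 1 SD: their share of passing barcodes, their share of all monocytes, and the share of members with high MHC class II, each in percent. The p21mTertCD libraries lie above the p21mTert libraries in the first measure, and p21Het covers the range from 0.657% to 5.29%.

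Some members carried MHC class II, the antigen-presenting molecules of dendritic cells and macrophages. After thinning to 1000 UMIs, 336 members (21.3%) had at least 5 UMIs of H2-Aa, H2-Ab1, H2-Eb1 and Cd74 together. The measure was a continuum, with 862 members (54.7%) at 0, 99 at 4 to 6 UMIs near the threshold and a highest value of 79. Because the split uses values of these same cells, the genes on its 2 sides are described with no test. Members with high class II had more of the class II transactivator Ciita (92.8 against 9.49 CPM), of H2-DMb1 (695 against 97.9), which loads peptide, and of the lectin genes Cd209a (178 ± 170 against 9.94 ± 10.5, SD over 11 libraries) and Clec10a (152 against 25.6). They had less Slpi (77.9 against 448), Chil3 (569.8 against 1885), Vcan (108 against 347) and Fn1 (1108 against 2234), while Ccr2 (1064 against 1022) and Ms4a6c (1272 against 1259) were at like levels. Of genes used to mark dendritic cells, Flt3 (57.7 against 28.3) and Kmo (13.9 against 3.36) were higher in them in 11 of 11 libraries and Itgax (14.1 against 4.50) in 7, while Xcr1 (1.99 against 0.216) and Zbtb46 (1.49 against 0.754) were low on both sides. Their median sum of type 2 dendritic cell markers was 0.142 per 1000 UMIs, against 0.0546 in the other members, and the 90th percentile was 1.73 against 0.222. The median sum of classical monocyte markers was 8.97 against 13.8, a sum that includes F13a1, Vcan and Ccr2, which chose the members.

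By genotype the class II-high share was 16.0%, 37.5% and 16.1% in p21Het, 22.8%, 30.4%, 21.9%, 18.2% and 28.3% in p21mTert, 18.9% and 30.0% in p21mTertCD and 19.1% (exact 95% interval 13.01 to 26.6) in WT. All groups overlapped, and the differences of 1.08, -0.123 and 1.21 points had exact permutation p-values of 0.911, 0.952 and 0.8. Without p21mTertCD_1 the last 2 were -5.69 and 6.78. Of 12 genes of the class II list tested by edgeR, 0 were called in any comparison, at most 1 passed unadjusted in each, and DESeq2 called 0. Over all genes 5.02% to 6.7% passed unadjusted, depending on the comparison. Cd74, the invariant chain, was at 2504 ± 967 CPM in p21Het, 2743 ± 660 in p21mTert and 2664 ± 838 in p21mTertCD.

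The main difference between genotypes was in genes induced by interferon. Classical monocytes of p21mTertCD lungs had higher levels than those of p21Het lungs for 62 of 8641 genes tested (0.718%), by edgeR's quasi-likelihood test on UMIs summed per library with Benjamini-Hochberg adjustment at 0.05, and 0 were lower (145 at an unadjusted p under 0.05 and 0 by DESeq2). Without a filter on low counts 151 were higher and 56 lower. The libraries of the 2 groups did not overlap for any of the 62. A call between so few libraries makes this likely, so it is no further support, and the share over all genes is not given here. The log2 fold changes of the 62 were 0.69 to 8.21 with a median of 1.25. Of the 41 tested genes in a list of 44 interferon-stimulated genes, 25 rose, and 41 had a log2 change above 0 with a median of 1.34, beside -0.01 over all genes. Of 11 tested PYHIN genes, relatives of the DNA sensor AIM2 that lie together on chromosome 1, 9 rose, with a median of 1.31. The 2 lists were chosen with earlier results of these libraries known and are not independent evidence of the direction.

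A promoter element of the interferon response was frequent among the called genes. The letters GAAANNGAAA, or TTTCNNTTTC on the other strand, the core of the interferon-stimulated response element, occurred in 23 of the 52 called genes that have a RefSeq promoter window (44.2%), where the window runs from 250 bases before to 50 after the start on GRCm38.p6. The same letters, with overlapping matches allowed, were in 292 of 6859 tested genes (4.26%) and in 1131 of all 32851 windows (3.44%). Among called genes they were found in 12 of 20 of the interferon-stimulated list (60.0%) and in 7 of 8 of the PYHIN family (87.5%), while the windows of Irf7, Oasl2, Vsig8, Ly6c2 and Ifi209 held none. The 150 bases before the start are shown for the 6 called genes of largest fold change whose match lies in them, on the strand of the gene with the match in capitals. They are shown so that the element can be compared between called genes, of which Ifi213, Ifi206 and Ifi205 are of the PYHIN family. The windows of Ifi213 and Ifi206 are nearly alike over a long stretch around the match. Matches within this family are therefore not independent of each other in the counts above.
Ifi213, chr1:173599273-173599422, minus strand: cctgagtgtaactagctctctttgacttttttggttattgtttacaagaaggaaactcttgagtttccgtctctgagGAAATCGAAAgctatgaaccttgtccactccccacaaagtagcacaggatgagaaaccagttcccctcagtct
Ifi206, chr1:173491319-173491468, minus strand: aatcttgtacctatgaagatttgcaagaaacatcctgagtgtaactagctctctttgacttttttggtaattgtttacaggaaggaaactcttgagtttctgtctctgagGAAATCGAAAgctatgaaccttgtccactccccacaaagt
Isg15, chr4:156200819-156200968, minus strand: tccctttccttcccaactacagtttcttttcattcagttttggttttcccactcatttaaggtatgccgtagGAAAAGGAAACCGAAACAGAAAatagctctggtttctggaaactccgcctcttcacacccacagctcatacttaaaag
Ifi205, chr1:174031756-174031905, minus strand: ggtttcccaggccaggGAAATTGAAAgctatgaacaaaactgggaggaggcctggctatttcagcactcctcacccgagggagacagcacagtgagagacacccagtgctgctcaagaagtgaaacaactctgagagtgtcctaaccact
Oas3, chr5:120777660-120777809, minus strand: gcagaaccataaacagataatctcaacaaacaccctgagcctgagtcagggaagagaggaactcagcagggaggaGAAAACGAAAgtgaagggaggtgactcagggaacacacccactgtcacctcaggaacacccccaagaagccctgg
Igtp, chr11:58199406-58199555, plus strand: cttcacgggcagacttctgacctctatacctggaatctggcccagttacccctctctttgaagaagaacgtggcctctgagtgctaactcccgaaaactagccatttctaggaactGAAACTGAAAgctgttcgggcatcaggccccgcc
The match lies 73 to 64 bases before the start in Ifi213, 40 to 31 in Ifi206, 134 to 125 in Ifi205, 75 to 66 in Oas3 and 34 to 25 in Igtp. In Isg15 a run of 3 overlapping matches spans 78 to 57 bases before the start. A match of letters is a description and no sign that a factor was bound in these cells.

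Among genes that carry the signal, Irf7 was at 90.3, 59.4 and 74.6 CPM in p21Het, at 102, 127, 95.7, 144 and 175 in p21mTert, at 211 and 223 in p21mTertCD, and at 100.1 in WT. The order was p21Het, p21mTert, p21mTertCD with no overlap, and the difference between p21mTertCD and p21Het was 1.61 (SE 0.20, adjusted p = 0.00107). Stat2, a factor that acts with IRF9, rose by 1.18 (SE 0.20, adjusted p = 0.01). The cytosolic RNA sensor genes Ddx58 (1.27, RIG-I) and Ifih1 (1.19, MDA5) and the nucleic acid sensor gene Zbp1 (1.39) also rose.

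Genes of antiviral effectors rose as well in p21mTertCD against p21Het. Isg15, a ubiquitin-like modifier, was at 97.1, 42.6 and 69.9 CPM in p21Het, at 109, 167, 114, 112 and 208 in p21mTert, at 291 and 245 in p21mTertCD and at 109 in WT. Its difference between p21mTertCD and p21Het was 1.99 (SE 0.29, adjusted p = 0.00311). Oas3, one of the synthetases whose product activates RNase L, was at 25.7, 38.7 and 29.7 CPM in p21Het, at 44.9, 57.0, 44.9, 46.0 and 91.6 in p21mTert, and at 108 and 106 in p21mTertCD (difference 1.92, SE 0.25, adjusted p = 0.00129). WT, at 33.2 CPM, was within the p21Het range for Oas3 and just above it for Isg15. Related genes rose by like amounts, with log2 changes of 1.77 for Oasl2, 1.73 for Oas2 and 1.64 for Oas1a. The most abundant member of the list, Ifi27l2a, was at 3069 ± 83.8 CPM in p21mTertCD, 1532 ± 381 in p21mTert and 861 ± 366 in p21Het (1.92, SE 0.30, adjusted p = 0.00516). Bst2, tetherin, which holds virions at the cell surface, rose by 1.12, and the GTPase genes Igtp and Irgm1 by 1.75 and 1.12. Phf11d (2.24), Rtp4 (2.16), Slfn1 (1.73), Phf11b (1.70), Slfn5 (1.33), Cmpk2 (1.26), Trim30a (1.21), Xaf1 (1.15) and Slfn2 (0.75) completed the examples.

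**Figure D2:**
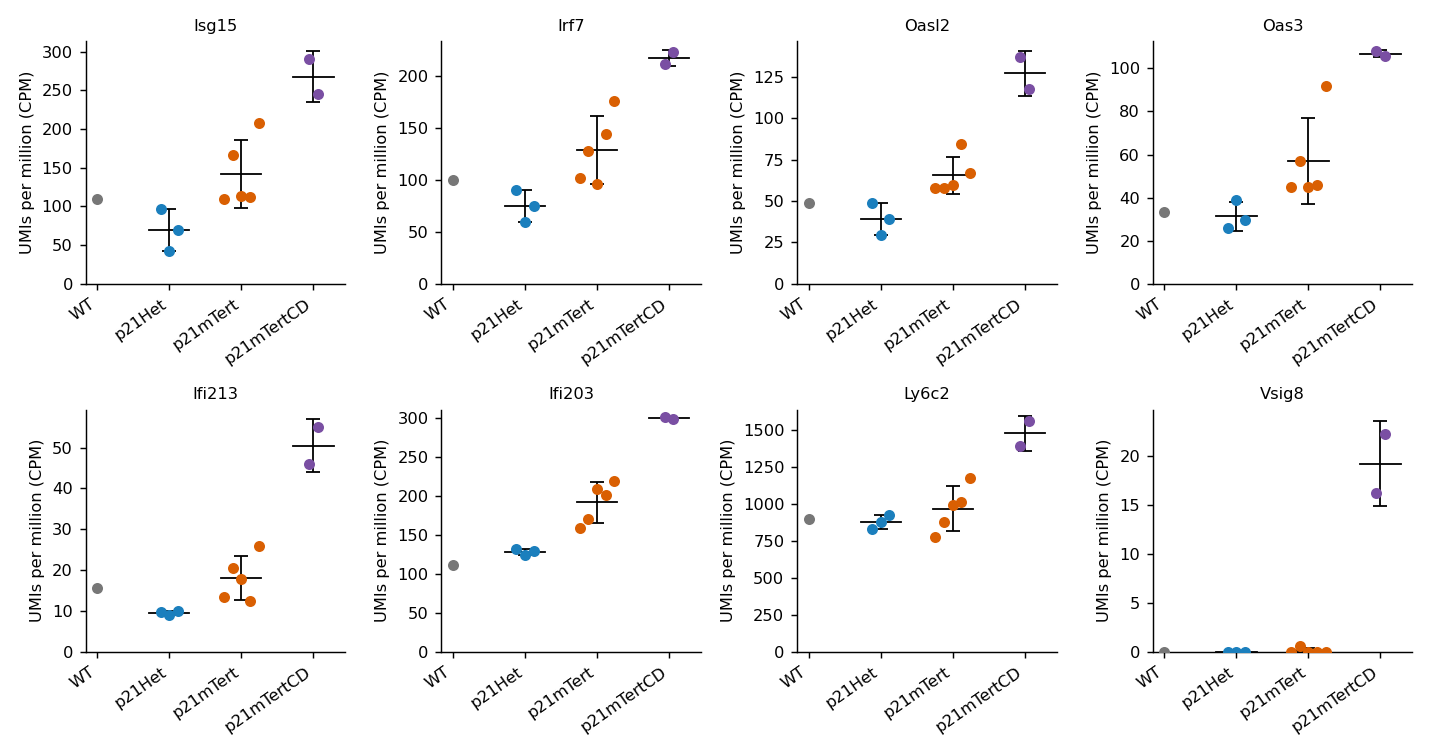
Level of 8 genes in the members (CPM, linear axes from 0), with 1 point per library, a line at the group mean and bars of 1 SD. For Irf7, Isg15 and Oas3 the p21mTertCD points lie highest and the p21Het points lowest of the 3 replicated groups.

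The PYHIN genes form a cluster on chromosome 1. Ifi213 was at 9.71, 9.04 and 9.91 CPM in p21Het, at 13.5, 20.6, 18.0, 12.5 and 25.8 in p21mTert, at 46.0 and 55.0 in p21mTertCD and at 15.6 in WT, a difference of 2.47 between p21mTertCD and p21Het (SE 0.24, adjusted p = 0.00068). Ifi203 was at 132, 124 and 129 CPM in p21Het, at 159, 170.4, 209, 202 and 219 in p21mTert, at 301 and 299 in p21mTertCD and at 111 in WT (1.31, SE 0.15, adjusted p = 0.000694). Both genes also kept the 3 replicated groups apart. They were named by a rule that required no overlap between the 2 groups of a comparison, so this is a description only. How many of all tested genes keep the 3 groups apart, as Irf7 did too, is not given here. Ifi206 (2.05), Ifi205 (1.93), Ifi211 (1.45), Ifi209 (1.24), Ifi204 (1.17), Mndal (0.81) and Ifi207 (0.78) rose as well. Aim2 itself (0.37) and Ifi214 (1.93, adjusted p = 0.0882 by edgeR) were not called. Between chr1:172555938-174031810 on GRCm38, from the start of Vsig8 to the end of Ifi205, 10 of 14 tested genes were called, which is a description only, since called genes mark both ends of the interval. The 3 tested genes of that interval outside the family were Vsig8, which was called, and Slamf8 (-0.08) and Dusp23 (-0.35), which were not. Ifi203 and Ifi211 overlap Mndal on the same strand, and their nearly alike sequences could split reads, so that single values within the family are uncertain.

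Vsig8 had the highest fold change of the comparison. It had 16.2 and 22.3 CPM in p21mTertCD, from 56 and 45 UMIs, and 0 UMIs in WT and in all p21Het libraries, with 1 UMI among the 5 p21mTert libraries. This is at least 47.8-fold higher in p21mTertCD than in p21Het, taking 3 counts over the p21Het group as the floor. The gene, which encodes an immunoglobulin-domain protein, was also called higher in p21mTertCD C1q macrophages (49.7 CPM against 0 UMIs in p21Het, adjusted p = 0.00173 by edgeR) and non-classical monocytes (19.9 against 0.22 CPM, adjusted p = 0.0076). It overlaps 4933439K11Rik on the opposite strand.

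The remaining called genes include many outside the lists. Of the 62, 34 belonged to the interferon-stimulated or PYHIN lists, 38 to any list and 24 to none. On chromosome 1 lie 13 of all 62, of which 10 are in the interval from Vsig8 to Ifi205. Of all genes tested, with those of the rule included, 525 of 8647 lie on that chromosome. Those outside the lists include the MHC class I genes B2m (0.69), H2-T23 (1.20) and H2-Q7, the peptide transporter gene Tap1 (0.86), the GTPase gene Ifi47 (1.73), Lgals3bp (1.68), Ly6e (0.85), and the genes Parp9, Parp12, Parp14 and Dtx3l, whose products attach ADP-ribose or ubiquitin. B2m, the light chain of MHC class I, was at 1687 ± 85.3 CPM in p21Het, 1983 ± 213 in p21mTert and 2575 ± 98.2 in p21mTertCD. Without p21mTertCD_1 only H2-T23, Ifi47, Lgals3bp, Samd9l, Sdc3 and Vsig8, 6 of these 24, kept their call. Flt1 (1.41), the receptor of vascular endothelial growth factor A also found on monocytes, and Id3 (0.92) were called too, and both were lost on leaving out either p21mTertCD library alone. Dtx3l and Parp9 overlap on opposite strands, as do H2-T23 and A930015D03Rik, and whether the counting used strand is not given in the sources used here.

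Some genes of monocyte identity were among those that rose in p21mTertCD. Ly6c2 was at 836, 878 and 930.0 CPM in p21Het, at 776, 881, 996, 1017 and 1180 in p21mTert, at 1396 and 1565 in p21mTertCD and at 903 in WT. The p21mTertCD libraries exceeded every other library, and the difference from p21Het was 0.83 (SE 0.14, adjusted p = 0.01 by edgeR). Plac8 was at 4176 ± 318 CPM in p21mTertCD, 2507 ± 499 in p21mTert and 2345 ± 224 in p21Het (0.92, adjusted p = 0.0258). Ms4a4c, a gene also on the interferon list, rose by 0.84 (adjusted p = 0.00436). These were the 3 genes called by edgeR among 30 of the classical monocyte list (6 by DESeq2), beside 0.718% of all genes, and the list's median change was 0.20, beside -0.01 over all genes. Without p21mTertCD_1 0 of the 30 were called by edgeR and without p21mTertCD_2 1 was, and Plac8 was lost in 6 of 19 settings. Lyz2, Fn1, S100a4 and S100a6, the abundant genes of that list or of the matrix list, were not called, with Lyz2 at 20264 ± 4587 CPM in p21Het and 22706 ± 3512 in p21mTertCD.

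The count of genes rested on both p21mTertCD libraries. Without p21mTertCD_1, the library low in B cells, 17 genes were called, of them 7 interferon-stimulated and 4 PYHIN genes, and without p21mTertCD_2 38 were called, with 20 and 4. The remaining library of the group is then assumed to vary like the other groups. Leaving out each other library gave 47 to 71. The median of the interferon-stimulated list stayed within 1.23 to 1.53 over all settings. Ifi213, Phf11d, Oas3, Oasl2, Ifi204, Ifi211, Ifi203, Irf7, Bst2 and Phf11b were called under all 19 settings run. Vsig8 was called under the 18 that gave it a value, whereas Ifi207, Fcgr1 and Irgm1 were each lost in 12 of 19. Without p21mTertCD_1, adjusted p-values by edgeR rose to 0.0728 for Isg15, 0.0646 for Ifi27l2a, 0.11 for Rtp4 and Zbp1, 0.249 for Ifih1, 0.167 for Igtp, 0.0628 for Slfn5 and 0.0806 for Il18. The calls of Stat2, Ms4a4c and Irgm1 were lost without that library, and those of Ifi205, Ifi206, Ifi207, Ifi209, Mndal, Ddx58, Oas1a, Oas2, Trim30a, Xaf1, Slfn1, Slfn2, Cmpk2, Fcgr1, Ly6c2 and Plac8 on leaving out either p21mTertCD library alone.

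In p21mTert members the same lists lay between the other genotypes, and few genes were called. Against p21Het, 3 of 8641 genes were called (0.0347%), all higher, while without a filter on low counts 122 were higher and 52 lower. The comparison shares its p21Het libraries with the one above, so agreement between the 2 is in part built in. Of the 41 interferon-stimulated genes 0 were called by edgeR, 26 passed an unadjusted p of 0.05, all higher, and DESeq2 called 5. Over all 8641 genes 568 (6.57%) passed unadjusted in either direction and DESeq2 called 22. Without a filter on low counts edgeR called 15 of 44 of the list and 4 of 12 PYHIN genes, all higher, beside the 122 higher and 52 lower over all genes. The number of genes tested in that fit, and so the share called, is not given here. With the filter, the 41 interferon-stimulated genes had a median of 0.58, with 40 above 0, beside 0.00 over all genes. The 11 PYHIN genes had a median of 0.61 with 11 above 0 and 0 called (8 unadjusted, 3 by DESeq2). Isg15, for example, differed by 1.04 (SE 0.25, adjusted p = 0.383), Irf7 by 0.82 (adjusted p = 0.239) and Phf11d by 1.50 (adjusted p = 0.075).

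The 3 called genes of p21mTert against p21Het were H2-T23, Flt1 and Gm42031. H2-T23, the non-classical class I molecule Qa-1 that is read by NK cell receptors, was at 189, 156 and 188 CPM in p21Het and at 317, 299, 296, 300.3 and 315 in p21mTert (0.83, SE 0.11, adjusted p = 0.0147). It was at 407 and 364 in p21mTertCD and at 301 in WT, so that p21Het was lowest of all 4 groups. Flt1 was at 17.5, 10.3 and 19.0 CPM in p21Het and at 43.7, 32.5, 71.8, 41.8 and 49.0 in p21mTert (1.45, SE 0.22, adjusted p = 0.0387), with p21mTertCD at 37.9 and 46.6 and WT at 33.8. Thus the p21Het libraries had less H2-T23 and Flt1 than every other library. All 3 calls were lost, with 0 genes called, on leaving out p21Het_2, p21Het_3 or p21mTert_4, without p21Het_1 the count was 5, and without either p21mTertCD library it was 2. The call of Flt1 was lost in 11 of 20 settings, among them the later deposit alone and only the 2 groups compared. Flt1 is also a gene of endothelial cells, whose markers were at 18.2 to 142 CPM in p21Het members and 26.8 to 277 in p21mTert members, and their part in its difference was not tested.

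Gm42031, a long non-coding RNA gene at chr8:85125872-85132289, was at 179, 145, 50.9, 130 and 58.1 CPM in p21mTert and at 2.43, 16.8 and 13.3 in p21Het (3.60, SE 0.48, adjusted p = 0.0147). It was at 7.81 and 11.9 CPM in p21mTertCD and 4.55 in WT, so that p21mTert alone was high. Other classes also had higher means in p21mTert: p21mTert and p21Het means were 135 and 12.97 CPM in non-classical monocytes, 99.4 and 19.3 in B cells, 85.5 and 21.7 in C1q macrophages and 27.6 and 1.62 in neutrophils. Gm42031 was not called there, since edgeR called 0 genes higher in p21mTert than in p21Het in these classes, and likewise 0 in T cells. Lrmda went the other way, with 0.642, 0.663, 5.98, 0.837 and 0 CPM in p21mTert against 14.6, 11.6 and 10.5 in p21Het, but was not called (-3.53, adjusted p = 0.075). Il18 (0.82, adjusted p = 0.181), Ccl5 (2.76, 0.213) and Yae1d1 (1.51, 0.234) were not called either. They were named by a rule that required no overlap between these groups.

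Between p21mTert and p21mTertCD, 5 of 8641 genes were called (0.0579%). Gm42031 was higher in p21mTert (3.61, adjusted p = 0.0263). Vsig8 (-6.29, adjusted p = 0.0114), Ifi213 (-1.55, SE 0.22, adjusted p = 0.022) and Lgals3bp (-1.17, adjusted p = 0.0263) were among the 4 that were lower. Of the interferon-stimulated list 1 of 41 was called, 32 passed unadjusted and DESeq2 called 11, all lower in p21mTert. The list had a median of -0.76, with 0 above 0. Over all 8641 genes 579 (6.7%) passed unadjusted in either direction and DESeq2 called 35 (0.405%). The PYHIN median was -0.67, with 1 of 11 called. Without a filter on low counts 25 of 44 and 7 of 12 were called lower, beside 132 lower and 119 higher over all genes. The number of genes tested in that fit is not given here. Ifi47, Oasl2 and Ly6e missed the threshold, each at an adjusted p of 0.0509. Leaving out p21mTert_1, p21mTert_2 or p21mTert_4 left 0 calls, as did leaving out p21mTertCD_2, and without p21mTertCD_1 none of the 5 remained and 1 other gene was called. Leaving out p21Het_1, p21Het_2 or p21Het_3 gave 15, 10 and 10.

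**Figure D3:**
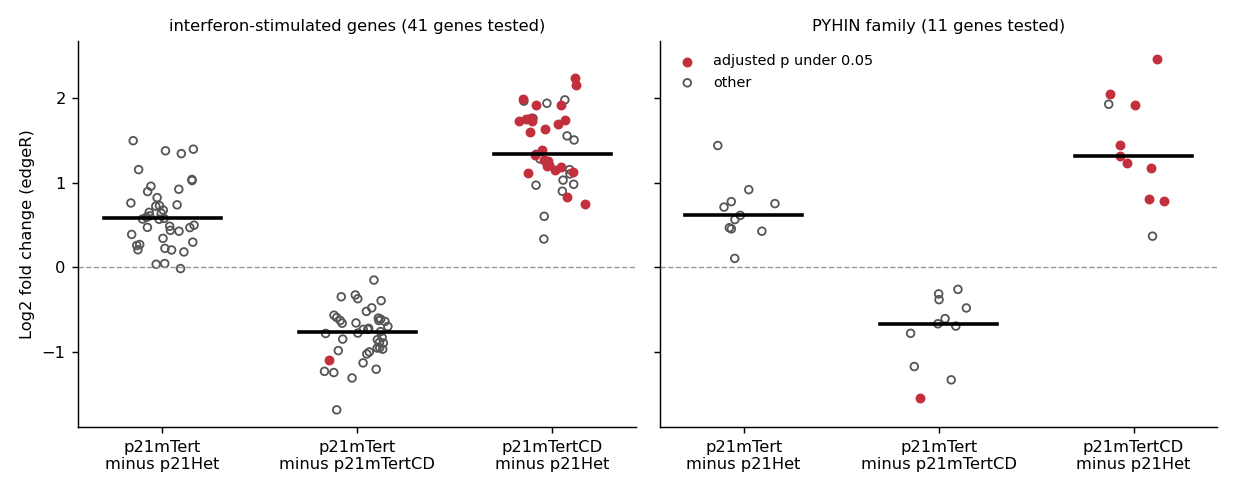
Log2 fold change (edgeR) of each tested gene of the interferon-stimulated and PYHIN lists in the 3 comparisons, which share libraries, with a black line at the list median and filled points for an adjusted p under 0.05. The medians are 1.34 and 1.31 for p21mTertCD minus p21Het and 0.58 and 0.61 for p21mTert minus p21Het.

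The higher level was seen across members rather than in a few. After thinning to 1000 UMIs, the median member held 8 and 7 interferon-stimulated UMIs in the p21mTertCD libraries, 3, 2 and 3 in p21Het, 3, 4, 3.5, 3 and 3.5 in p21mTert and 3 in WT. Members with none were 0.356% and 1.33% of the p21mTertCD libraries and 4.00% to 17.9% of the others. At the 10th percentile the p21mTertCD members still held 3 UMIs, against 0 or 1 in the other libraries. Members with high class II summed to 8574 and 9385 CPM of the list in p21mTertCD against 3311, 2689 and 4624 in p21Het, and the other members to 8585 and 7878 against 3599, 2397 and 3654, so both sides of that split were higher.

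**Figure D4:**
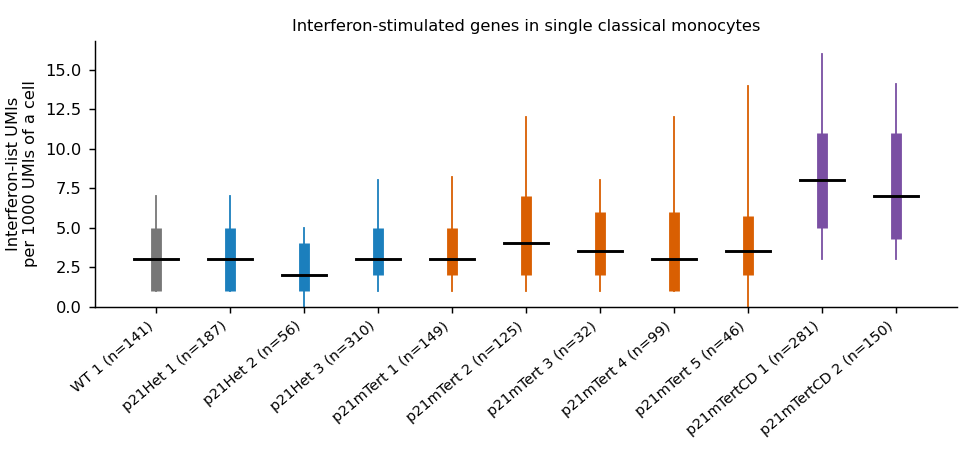
UMIs of the interferon-stimulated list per 1000 UMIs of a cell (vertical axis) in the members of each library (n = members), with the median as a black line, the middle 50% as a thick bar and the 10th to 90th percentile as a thin line. The medians are 8 and 7 in the p21mTertCD libraries and 2 to 4 in the other 9, and the bars overlap between genotypes.

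Several technical measures were set beside this result. Median UMIs per member were 12136 and 13158.5 in p21mTertCD and 10929, 13916 and 15599.5 in p21Het, and median mitochondrial shares 3.08% and 2.78% against 4.38%, 3.61% and 3.60%. Neutrophil markers were at 822 to 846 CPM in p21mTertCD and 966 to 2358 in p21Het, epithelial markers at 1731 to 3071 in p21mTertCD and 679.5 to 4732 in p21Het, and fibroblast markers at 17.1 to 24.3 against 66.3 to 1273. Their part in the result was not tested. Both p21mTertCD libraries belong to the later deposit: with a deposit term 62 genes were called, of which 54 were shared with the 62 above, and within the later deposit alone 80 were called, with 55 shared.

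Other immune cells of the same libraries were fitted in the same way. Summed over the interferon-stimulated list, classical monocytes had 8583 and 8319 CPM in p21mTertCD, 3549, 2504 and 3804 in p21Het, 3837 to 5439 in p21mTert and 3538 in WT. Non-classical monocytes had 4202 and 4007 in p21mTertCD, 2050.2, 1430 and 1796 in p21Het, 1826 to 2035 in p21mTert and 1876 in WT. Neutrophils had 7813 and 5580 in p21mTertCD and 2333, 2668 and 3167 in p21Het. T cells had 2573 and 2322 CPM in p21mTertCD against 1597, 1488 and 1749. The p21mTertCD libraries were thus above p21Het in both monocyte classes, neutrophils and T cells, while C1q macrophages overlapped, with 2474 and 2046 against 1187, 1511 and 3049, as did B cells.

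In the fits, 24 of 9809 genes were higher in p21mTertCD than in p21Het in non-classical monocytes (0.245%), with 10 of 41 interferon-stimulated genes called at a median of 1.33 and 3 of 11 PYHIN genes at 1.29. Neutrophils had 0 of 8938 genes called (0%), although 28 of 41 interferon-stimulated genes passed unadjusted, all higher, at a median of 1.32, beside 326 of all genes (3.65%) in either direction. C1q macrophages had 1 of 9441 (0.0106%), T cells 1 of 12640 (0.00791%) and B cells 0 of 12871 (0%). In these 3 classes 0 interferon-stimulated genes were called by edgeR, with 4, 31 and 5 higher at an unadjusted p under 0.05 and medians of 0.25, 0.66 and 0.24. Over all genes tested, 2.61%, 12.8% and 3.93% passed that unadjusted threshold in either direction. DESeq2 was not run in these other classes, and their fits were not repeated without either p21mTertCD library.

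**Figure D5:**
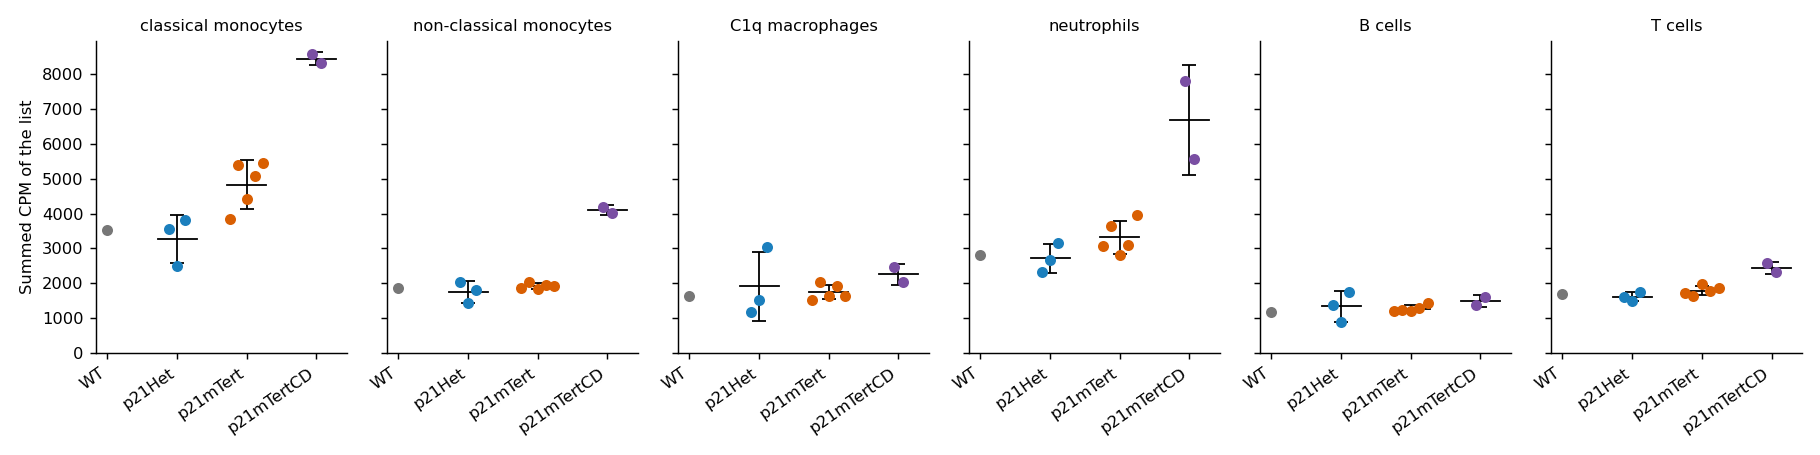
Summed CPM of the interferon-stimulated list in classical monocytes and other immune classes, with 1 point per library, a line at the group mean and bars of 1 SD. In classical monocytes the 2 p21mTertCD libraries reach 8583 and 8319 CPM, against 2504 to 3804 in p21Het.

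Whether genotype effects differed between the monocyte classes was tested by a group-by-class term with a term for each library. For p21mTertCD minus p21Het, a test added after the data had been seen, 0 of 42 interferon-stimulated genes differed (8 unadjusted), with a median difference of 0.10 and a smallest adjusted p of 1. Over all 10200 genes 413 (4.05%) passed unadjusted for this term, with a median difference of 0.02. For p21mTert minus p21Het 0 of 42 differed (12 unadjusted), with a median difference of 0.44, 39 above 0 and a smallest adjusted p of 0.624. Over all 10200 genes 486 (4.76%) passed unadjusted for that term, and 49.1% were above 0. The rise in p21mTertCD was therefore not shown to differ between classical and non-classical monocytes. Over all genes the p21mTert minus p21Het term called 1 of 10200 genes (0.0098%), Saa3, an acute-phase gene, at -7.72. Saa3 was at 7.28, 666 and 122 CPM in classical monocytes of p21Het and at 1.28 to 14.96 in those of p21mTert, so that p21Het_2 carried most of it. In classical monocytes alone it was not called (-6.15, adjusted p = 0.284).

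Few genes of other monocyte functions were called, against a background of 0.0347%, 0.0579% and 0.718% of all genes in the 3 comparisons, at which lists of this size hold few or no calls. In p21mTertCD against p21Het, edgeR called 1 of 25 genes of pattern recognition and the phagocyte oxidase, Fcgr1 (1.25, adjusted p = 0.0497), which also is the 1 gene called of 32 for macrophage differentiation, and 1 of 21 for cytokines and chemokines, Il18 (1.30, adjusted p = 0.00161). Fcgr1 was at 72.8, 40.0 and 95.02 CPM in p21Het and at 187 and 134 in p21mTertCD, and Il18 at 23.3, 15.5 and 23.7 against 53.5 and 46.6. The cytokine list had a median of 0.52 for p21mTert minus p21Het, with changes from -1.23 to 4.68, and of 0.15 for p21mTertCD minus p21Het, with changes up to 7.04. Il1b, whose product is a main inflammatory cytokine, ranged from 77.5 to 811 CPM within p21Het alone and was not called in any comparison. In p21mTert against p21Het, 0 genes of these 3 lists were called by edgeR, with 2, 5 and 5 at an unadjusted p under 0.05 and 0, 1 and 0 called by DESeq2 for pattern recognition, cytokines and macrophage differentiation. In p21mTert against p21mTertCD the counts were likewise 0 by edgeR, with 5, 3 and 2 unadjusted and 1, 0 and 1 by DESeq2. Over all genes 6.57% passed unadjusted in p21mTert against p21Het and 6.7% in p21mTert against p21mTertCD. DESeq2 called 0.255% and 0.405% of all genes in the same order.

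Of 24 transcription factor genes of monocytes 0 were called by edgeR or DESeq2 in any comparison, with 2, 1 and 3 below an unadjusted p of 0.05 for p21mTert against p21Het, p21mTert against p21mTertCD and p21mTertCD against p21Het. Cebpb, a factor that non-classical monocytes need, was at 2932 ± 449 CPM in p21Het, 3242 ± 216 in p21mTert and 3368 ± 97.8 in p21mTertCD, and Nr4a1, which drives their conversion, at 760 ± 228, 948 ± 130 and 993 ± 255. Of 24 genes of chemokine receptors and adhesion, 0 were called by edgeR in any comparison, with at most 4 unadjusted and 0 by DESeq2. Cd44 was at 729 ± 128, 852 ± 68.1 and 763 ± 10.6 CPM in these groups. The non-classical list (21 genes), the coagulation and matrix list (16), the cell cycle list (17) and the immediate early list (25) had 0 calls by edgeR in the 3 comparisons, with at most 7, 4, 1 and 2 genes at an unadjusted p under 0.05 and 0 by DESeq2. The 7 were in p21mTert against p21Het, with 6 higher and 1 lower. Over all genes tested 6.57%, 6.7% and 5.02% passed that unadjusted threshold, with the comparisons in the order given for the transcription factors. Thbs1, thrombospondin 1, ranged from 214 to 2310 CPM within p21Het, wider than any difference between group means. Mki67, a marker of cycling cells, had a UMI in 75 of 1576 members, and its level was 46.5 CPM in p21Het_2 and 1.30 to 18.1 in the other libraries.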

How the data were processed

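Mouse lung was analysed in 11 single-cell 3′ RNA libraries (10x Genomics). The authors mapped reads to mm10 with Cell Ranger, per the labels' protocols and the submitters' processing notes. The version is not stated here, because the sources conflict. The deposited matrices hold raw UMI counts per gene and barcode, to which the cell filters and scaling that the labels describe had not been applied. The stated limits of 1000 to 30000 UMIs and 14% mitochondrial UMIs were applied here. The members, gene lists and tests were chosen with earlier results of these data known. Doublets were not removed: 72 members (4.57%) were among the highest scores of Scrublet (scanpy 1.11.5) and were left out as an alternative only.

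UMIs were summed per library over members and fitted over the 10 replicated libraries with edgeR 4.0.16 (R 4.3.3; filterByExpr, TMM, quasi-likelihood test, a term for group). Benjamini-Hochberg adjustment ran over all genes tested, and genes of the rule were left out of the calls. DESeq2 1.42.0 was an alternative. The fit was also run on simulated data with 200 changed genes, for p21mTert against p21Het, p21mTert against p21mTertCD and p21mTertCD against p21Het. In that order it recovered 52.3%, 40.8% and 43.3% of genes changed 2-fold and 92.8%, 87.6% and 89.4% of those changed 4-fold. False calls numbered 8, 8 and 11 beside 102, 80 and 84 true calls at 2-fold. At 4-fold they numbered 18, 24 and 14 beside 181, 170 and 177. In each run they were a larger share of the calls than the adjusted threshold of 0.05 aims at. Shares, Tert and Cdkn1a were tested with 2-sided exact permutation tests (scipy 1.17.1), which with 5 and 3 libraries cannot go below 0.0179, with 5 and 2 below 0.0476, and with 2 and 3 below 0.1. WT, with 1 library, entered no test. Intervals are exact, at 95%, and cover counting error only.

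Genes were named by a rule: Tert and Cdkn1a; in each comparison up to 10 called genes per direction of largest fold change without overlap of groups, at 10 CPM or more in the higher group, filled up by smallest p; and the called and 4 most abundant genes of each list. Slamf8, Dusp23, Ifi214, Aim2, B2m, Tap1, Id3, Mki67, Saa3 and genes named only by symbol fall outside this rule and were chosen after their values were seen. Some genes that meet this rule are not reported here. Alternatives were other normalization, filters, rule thresholds, doublets left out, deposit as a term, the later deposit alone, and each library left out. Of 31053 gene identifiers, 31011 matched GENCODE M21 (GRCm38), the source of gene positions. Promoter windows are from RefSeq on GRCm38.p6. Other software was Python 3.11.15, numpy 2.4.6, matplotlib 3.10.9 and pandas 2.3.3.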

Additional observations from a re-analysis of the deposited data

Results flagged for a closer look

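Within the 5 p21mTert libraries 1 sample stood far from the others for 5 genes, of 54 groups of values examined, where chance gives about 1 in 20 (Dixon's criterion). Library p21mTert_5 was the high one for Phf11d (36.1 CPM), Oas3 (91.6 CPM) and Ifi209 (217 CPM), genes of the interferon-stimulated and PYHIN lists. Library p21mTert_3, the smallest with 32 members, was high for Lrmda (5.98 CPM), and p21mTert_2 held the 1 UMI of Vsig8 in that group (0.663 CPM). A lone UMI meets the criterion by construction, so Vsig8 does not bear on how often chance does, and Lrmda in so small a library rests on few UMIs. The effect of p21mTert against p21Het on Saa3 differed between classical and non-classical monocytes by the group-by-class term (-7.72 log2, edgeR). In classical monocytes Saa3 averaged 265 ± 352 CPM in p21Het and 5.20 ± 5.76 in p21mTert, and in non-classical monocytes 5.37 ± 4.03 and 13.4 ± 17.8, and p21Het_2 alone reached 666 CPM.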

How the results depend on the processing

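Depth and library number limit these results: p21mTertCD has 2 libraries, p21mTert_3 has 32 members, and Tert rests on 0 to 13 UMIs per library. For p21mTertCD minus p21Het the 62 calls became 207 (151 higher) without a filter on low counts and 38 with only the 2 groups fitted, stayed between 59 and 76 under the other settings with all libraries, and were 80 in the later deposit alone. For p21mTert minus p21Het the 3 calls became 22 with DESeq2, 174 (122 higher) without a filter, 5 without doublets, 11 in the later deposit alone and 33 (17 higher) with a replicate block over numbers 2 and 3, whose same-numbered libraries did not deviate together (correlations -0.104 and 0.038), so the numbers are not taken as pairs. For p21mTert minus p21mTertCD the 5 became 35 with DESeq2, 251 (119 higher) without a filter, 9 without doublets, 8 with at least 4 UMIs of F13a1 and Vcan, 12 with a deposit term, 13 in the later deposit and 28 with only the 2 groups. The group-by-class term called 88 and 92 genes without a filter, for p21mTert and p21mTertCD minus p21Het. The cause was not tested for any of these.

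The share of passing barcodes, p21mTert minus p21mTertCD, was -1.01 on the logit scale (exact permutation p = 0.0952) and -2.30 in the later deposit (exact permutation p = 0.0667). The share of monocytes for that pair was -26.4 without doublets and -22.6 after thinning, each with an exact permutation p of 0.0476. The class II-high share changed sign or moved for p21mTert minus p21Het (-1.12 at 3 UMIs, -2.14 in the later deposit, -0.677 with the replicate block), for p21mTert minus p21mTertCD (0.00208 on the logit scale, 0.0326 at 4 UMIs of F13a1 and Vcan, 0.311 at 10 class II UMIs, 0.249 in the later deposit) and for p21mTertCD minus p21Het (-2.38 in the later deposit).

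Leaving out 1 library at a time gave these ranges, in the order p21mTert minus p21Het, p21mTert minus p21mTertCD, p21mTertCD minus p21Het. Calls were 0 to 5, 0 to 15 and 17 to 71. The share of passing barcodes was -2.72 to -0.409, -2.86 to -1.26 and -0.665 to 1.65. The class II-high share was -2.51 to 8.22, -5.69 to 5.45 and -4.36 to 8.34. The share of monocytes was -27.6 to -4.73, -35.9 to -15.4 and -2.04 to 22.6. Cdkn1a was -0.0142 to 0.24, -0.21 to -0.15 and 0.16 to 0.42, and Tert 0.98 to 1.58, -0.67 to 0.27 and 0.92 to 1.85. The group-by-class term called 0 to 1 genes for the first and 0 to 6 for the last.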
